A study of Homo sapiens with 33 samples.

Results

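The difference between the prednisolone responses of the leukaemia lines CEM and Nalm6 was measured by RNA sequencing as the response of CEM minus that of Nalm6, gene by gene. A gene was a member if, in each line, at least 1 group had 10 counts or more in all of its libraries, which left 14871 of 62446 gene rows, and 12 of the 33 libraries of the series entered. CEM is an established human T-cell acute lymphoblastic leukaemia (ALL) line and Nalm6 an established human B-cell precursor ALL line. The 4 groups, of 3 libraries each, were untreated CEM, CEM given 10 µM prednisolone for 24 h, untreated parental Nalm6, and parental Nalm6 given 5 µM prednisolone for 24 h. By their titles, none of these libraries is from the TLE1 knockout used elsewhere in the series or from cells given CHIR-99021. The labels name charcoal-stripped serum, which is depleted of steroids, for Nalm6 and give no medium for CEM. Because the doses differ, line and dose cannot be told apart, and each cell type is represented by 1 line. Independent experiments are stated for untreated Nalm6 and not for the other 3 groups, so the p-values measure the spread between these libraries, which may be technical. The protocol in the labels and the text of the series assign prednisolone and CHIR-99021 to parental and knockout cells in opposite ways, and the sample titles were followed. No label gives when libraries were prepared, so a preparation shared by a group cannot be told apart from its treatment. The untreated Nalm6 libraries were registered in an earlier run of sample numbers than the other 9, so in the Nalm6 response, and in the difference, an effect of that set cannot be told apart from prednisolone.

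Prednisolone is a synthetic glucocorticoid and a backbone of ALL treatment. It binds the glucocorticoid receptor (NR3C1), which leaves its chaperone complex, enters the nucleus and binds DNA or other transcription factors, raising some genes and lowering others. In lymphoid cells the receptor is known for inducing the death gene BCL2L11 and the leucine zipper gene TSC22D3, for lowering MYC and metabolic genes, and for arrest and apoptosis. The title of the series concerns antagonism between glucocorticoid and canonical Wnt signalling, in which TCF/LEF factors with beta-catenin switch genes on and TLE proteins repress them.

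The libraries held 29461127 to 61930057 counts assigned to genes, and levels are given below in CPM, counts scaled to 1000000 assigned counts per library. The lines matched their labels: the summed level of 7 T-lineage markers was 1831 to 1937 CPM in CEM and 29.6 to 36.7 CPM in Nalm6, where CD3D, CD3E, CD3G, CD2 and CD7 were at 0, while that of 6 B-lineage markers was 46.3 to 79.0 CPM in CEM and 1399 to 1641 CPM in Nalm6. CD79A, a B-cell receptor component, made up most of the B-lineage signal in CEM, and 8 markers of myeloid and erythroid cells summed to at most 3.92 CPM in any library. Of 2 further myeloid genes outside that sum, CD33 had a mean of 4.82 CPM in untreated and 6.51 CPM in treated Nalm6, and CSF3R of 0.777 and 1.40 CPM in CEM. Untreated CEM replicate 2 stood further from its replicates (chi-square per degree of freedom 8.24 and 7.57) than replicates 1 and 3 from each other (2.00), and treated Nalm6 replicates 2 and 3 differed most (10.4). Treated Nalm6 replicate 2 also had 32.7% of its reads on no gene feature of the counted strand, against 19.3% to 28.3% in the other libraries.

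More genes were called in Nalm6, whose untreated libraries are the set numbered apart, than in CEM. The responses differed between the lines at 5553 of 14871 genes (37.3% called, edgeR quasi-likelihood test of the difference, Benjamini-Hochberg adjusted p under 0.05). The response, the log2 fold change of treated over untreated libraries, was called at 6712 genes in CEM (45.1%), where 3401 rose (22.9%) and 3311 fell (22.3%), and at 9278 in Nalm6 (62.4%), where 4724 rose (31.8%) and 4554 fell (30.6%). An absolute response of at least 1 was called at 391 genes in CEM (2.63%), of which 339 rose (2.28%) and 52 fell (0.350%), and at 850 in Nalm6 (5.72%), of which 641 rose (4.31%) and 209 fell (1.41%). The difference was higher in CEM at 3042 genes (20.5%) and lower at 2511 (16.9%), and 723 genes (4.86%) differed by at least 1, 339 of them higher (2.28%) and 384 lower (2.58%). Its median over all genes was 0.0090, and the SD of the response over genes was 0.44 in CEM and 0.62 in Nalm6. Without untreated CEM replicate 2 the difference was called at 5411 genes, and without treated Nalm6 replicates 2 and 3 in turn at 5323 and 5743. In these bulk libraries a change in the share of cells that express a gene cannot be told apart from a change in its level per cell.

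Genes that responded in both lines mostly moved the same way. Of 5259 genes called in both lines (35.4%), 4567 moved the same way and 692 (4.65%) moved in opposite directions. The plot of genes by pattern shows that 675 genes rose in both lines and more in Nalm6, against 228 that rose more in CEM. Likewise 921 fell in both and more in Nalm6, against 88 that fell more in CEM. A further 1153 genes rose and 1039 fell in Nalm6 with no call in CEM, while 414 rose and 261 fell in CEM with no call in Nalm6. Opposite movement consisted of 390 genes (2.62%) that rose in CEM and fell in Nalm6 and 302 (2.03%) of the reverse kind, and 11 genes (0.0740%) moved by at least 1 each way. A core of 161 genes responded by at least 1 in the same direction in both lines, which is 41.2% of the 391 such genes of CEM and 18.9% of the 850 of Nalm6. Across the 14871 genes, which are not independent replicates, the responses had a Pearson correlation of 0.47 and a Spearman correlation of 0.52, given as a description since all genes of a line share its libraries.

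**Figure D1:**
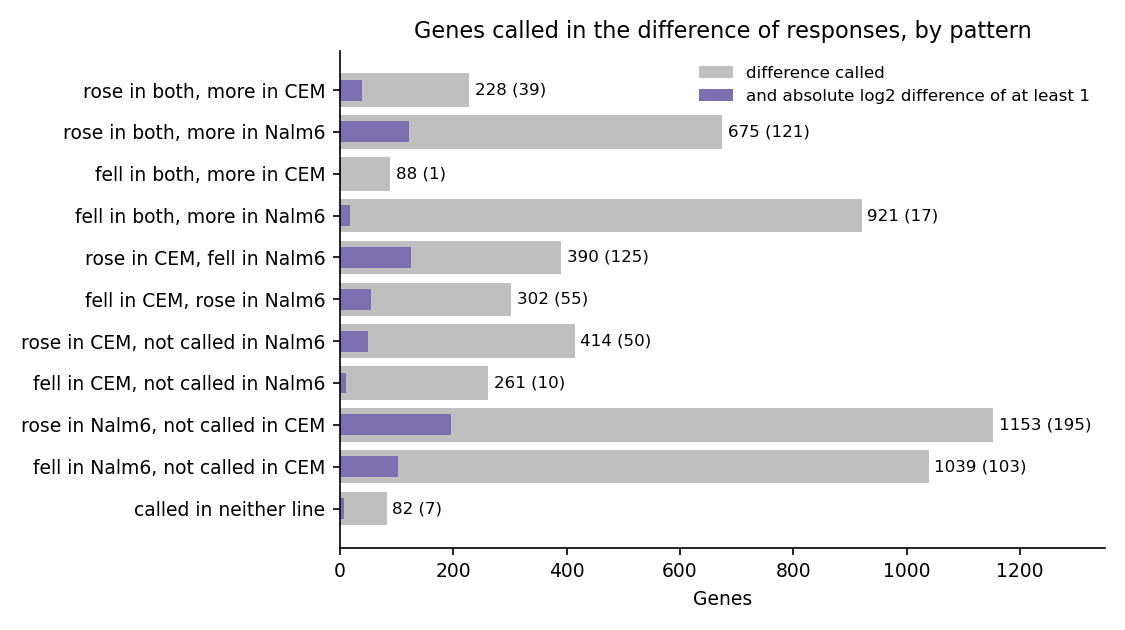
Number of genes called in the difference of responses, by what they did in each line; grey bars count all called genes and purple bars those with an absolute log2 difference of at least 1, the second number in brackets. The longest bar, 1153 genes, is of genes that rose in Nalm6 with no call in CEM.

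**Figure D2:**
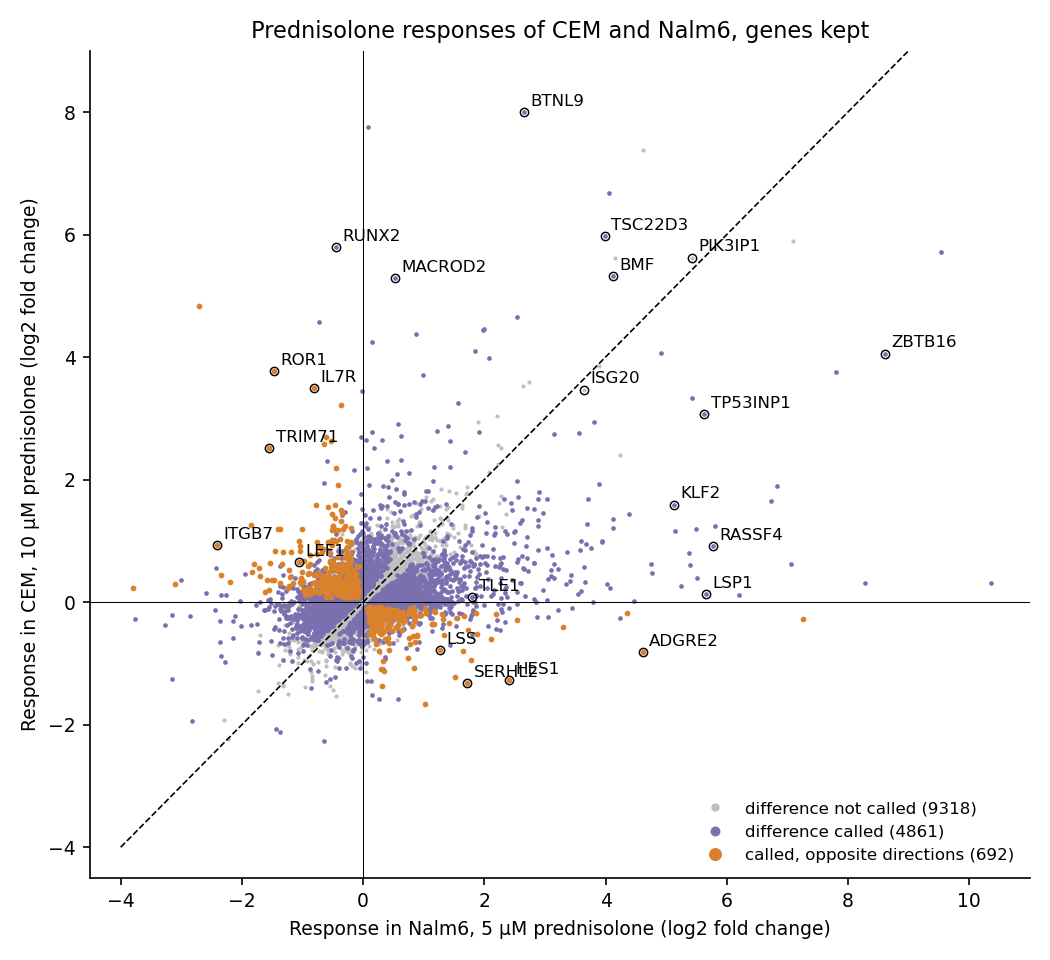
Response of each kept gene in CEM (vertical axis, 10 µM) against that in Nalm6 (horizontal axis, 5 µM), as log2 fold change of treated over untreated; each point is a gene, the dashed line marks equal responses, purple marks a called difference and orange the 692 genes called in opposite directions. IL7R, ROR1, TRIM71 and LEF1 lie above the line at the left, and KLF2, TP53INP1 and RASSF4 far below it at the right.

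The receptor and its best known targets rose in both lines. All 14 kept genes of a list of 17 glucocorticoid-responsive genes rose in CEM, 13 rose in Nalm6 and DUSP1 fell there. Of all genes, 22.9% rose in CEM and 31.8% in Nalm6. The difference was called at 12 of them (85.7% called, 37.3% overall), 6 higher in CEM and 6 higher in Nalm6, with a median response of 2.17 in CEM and 2.47 in Nalm6, against medians of 0.018 in each line over all genes. Of those higher in Nalm6, ZBTB16 and SLA passed the filter there through treated libraries alone. With 10 counts required in every library the counts were 6 and 4. With the 100 nM dexamethasone libraries of Nalm6 and their own controls in place of its prednisolone libraries they were 5 and 8.

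NR3C1, the receptor itself, stood at 202, 201 and 207 CPM untreated and 607, 604 and 607 CPM with prednisolone in CEM, and at 243, 239.7 and 241 CPM untreated and 570.2, 562 and 543 CPM with prednisolone in Nalm6. Its levels were thus similar before treatment and rose without overlap in both lines, slightly more in CEM, by 0.37 ± 0.04 (log2 ± SE, edgeR adjusted p = 6.07e-07). TSC22D3, which encodes the glucocorticoid-induced leucine zipper protein, went from 1.97, 2.33 and 2.13 to 139.9, 137 and 131 CPM in CEM. In Nalm6 it started higher, at 19.6, 23.4 and 21.9 CPM, and reached 329, 341 and 376 CPM. Its response was therefore larger in CEM by 1.98 ± 0.12 (log2 ± SE, edgeR adjusted p = 6.80e-11), while its level stayed higher in Nalm6 in treated libraries. FKBP5, a co-chaperone that lowers receptor activity, started alike, at 116 ± 10.4 CPM in CEM and 113 ± 2.08 CPM in Nalm6 (SD, n = 3). It rose to 646, 661 and 621 CPM in CEM and 384, 366 and 352 CPM in Nalm6, a difference of 0.78 ± 0.07 (log2 ± SE, edgeR adjusted p = 1.97e-08). With the dexamethasone libraries of Nalm6, the difference of FKBP5 turned to -0.23, edgeR adjusted p = 0.0877. DDIT4, an inhibitor of mTOR signalling, also rose more in CEM (2.21 in CEM and 1.17 in Nalm6, a difference of 1.05). The differences of TSC22D3 (0.73), NR3C1 (0.29) and DDIT4 (0.36) were smaller with the dexamethasone libraries of Nalm6 and still called.

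The reverse held for a second set of targets. ZBTB16, a zinc finger repressor also called PLZF, stood at 0.195, 0.154 and 0.325 CPM untreated and 3.96, 3.47 and 3.53 CPM with prednisolone in CEM, and at 0.0484, 0.0612 and 0.104 CPM untreated and 27.3, 31.0 and 29.2 CPM with prednisolone in Nalm6. It was near 0 without prednisolone in both lines and passed the filter through its treated Nalm6 and treated CEM libraries alone, so its difference of -4.55 ± 0.47 (log2 ± SE, edgeR adjusted p = 1.49e-07) rests on low untreated counts. TXNIP, which binds thioredoxin and limits glucose uptake, began level, at 78.6, 78.4 and 75 CPM in CEM and 75.3, 76.3 and 77.0 CPM in Nalm6. Treated libraries held 242, 254 and 262 CPM in CEM and 592, 656 and 665 CPM in Nalm6, so that all 3 treated Nalm6 values lay above all 3 of CEM, a difference of -1.35 ± 0.06 (log2 ± SE, edgeR adjusted p = 2.89e-13). The kinase gene SGK1 (1.24 in CEM and 2.88 in Nalm6), the cytokine signalling inhibitor SOCS1 (2.95 in CEM and 3.81 in Nalm6) and the clock gene PER1 (0.41 in CEM and 1.37 in Nalm6) also rose more in Nalm6. SLA, an adaptor of antigen receptor signalling, did too (1.45 in CEM and 2.97 in Nalm6), with 0.0603 ± 0.0237 CPM in untreated Nalm6, a level near the limit of 3 counts per library.

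Among 20 kept genes of the receptor with its chaperones and cofactors, 13 differed (65% called, 37.3% overall), 6 higher and 7 lower in CEM. NR3C1 and FKBP5, already described, were among those higher. The number was 6 when all 33 libraries were fitted together. Of the chaperone genes, HSP90AA1 fell in both lines (-0.48 in CEM and -0.63 in Nalm6), and so did FKBP4 (-0.65 in CEM and -0.71 in Nalm6). HSP90AB1 fell in both and less in CEM (-0.45 against -0.64). The coactivator NCOA1 rose in Nalm6 (0.48) with a value of -0.0092 in CEM, and the receptor-interacting protein gene NRIP1 fell in Nalm6 (-0.65) with a value of 0.050 in CEM. The differences were -0.49 and 0.70, both called.

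Sequences of 3 of the genes named here are shown, 1 that rose in both lines and 2 that moved in opposite directions, so that matches to the receptor's DNA motif before each gene can be read. They are the 250 bases before the annotated start from RefSeq (GRCh38.p14), with matches in capitals. TXNIP (chr1:145996580-145996829, minus strand) holds the receptor's palindromic motif, searched on both strands as GNACA and TGTNC with 3 bases between them, 175 bases before the start. LEF1 (chr4:108166302-108166551, minus strand) holds only a single arm of it, AGAACA, 10 bases before the start. IL7R (chr5:35856641-35856890, plus strand) holds neither.
TXNIP: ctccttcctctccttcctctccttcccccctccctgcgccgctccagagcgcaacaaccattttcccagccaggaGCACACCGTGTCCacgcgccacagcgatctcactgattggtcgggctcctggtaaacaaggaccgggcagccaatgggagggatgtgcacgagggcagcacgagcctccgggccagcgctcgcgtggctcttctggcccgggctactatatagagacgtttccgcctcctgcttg
LEF1: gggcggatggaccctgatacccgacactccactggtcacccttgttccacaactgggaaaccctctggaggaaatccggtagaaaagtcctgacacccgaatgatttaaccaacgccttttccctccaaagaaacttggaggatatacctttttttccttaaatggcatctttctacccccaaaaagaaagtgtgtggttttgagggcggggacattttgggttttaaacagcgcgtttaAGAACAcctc
IL7R: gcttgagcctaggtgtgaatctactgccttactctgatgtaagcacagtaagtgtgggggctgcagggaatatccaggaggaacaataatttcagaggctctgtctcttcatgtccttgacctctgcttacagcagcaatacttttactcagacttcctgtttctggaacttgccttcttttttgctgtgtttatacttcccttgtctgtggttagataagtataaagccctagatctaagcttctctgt

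The palindrome occurred in 137 of 35116 RefSeq windows of 250 bases before to 50 after a start (0.390%), and AGAACA or its reverse complement TGTTCT in 5192 (14.8%). Of genes that rose by at least 1, it was present in 2 of 207 in CEM and 5 of 383 in Nalm6, and of all kept genes with a window in 19 of 9895 (0.192%). Of genes whose difference was at least 1, it was present in 0 of 208 higher and 4 of 241 lower in CEM. The single arm overlaps the palindrome by sequence in some windows, and a match is a description of letters, not a binding site.

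In the BCL2 family, which sets the threshold for mitochondrial apoptosis, both death genes that rose most did so in both lines, while several other members moved in 1 line or in opposite directions. Of 14 kept members of 16, 8 differed (57.1% called, 37.3% overall), 5 higher and 3 lower in CEM, and 4 moved in opposite directions, as 4.65% of all genes did. BCL2L11, which encodes the BH3-only killer BIM, stood at 10.3, 11.3 and 9.31 CPM untreated and 48.9, 48.0 and 47.7 CPM with prednisolone in CEM, and at 28.5, 27.6 and 26.7 CPM untreated and 78.2, 78.6 and 72.0 CPM with prednisolone in Nalm6. The groups were apart in each line, and the response was larger in CEM by 0.76 ± 0.08 (log2 ± SE, edgeR adjusted p = 8.28e-08). BMF, a second BH3-only killer, went from 0.455, 0.373 and 0.384 to 16.4, 16.6 and 16.5 CPM in CEM and from 4.2, 3.94 and 3.94 to 62.7, 73.2 and 76.9 CPM in Nalm6, a difference of 1.20 ± 0.21 (log2 ± SE, edgeR adjusted p = 1.38e-04). Both killers therefore rose by more in CEM on the log2 scale but reached the higher level in Nalm6. With the dexamethasone libraries of Nalm6 the difference was 0.45 for BCL2L11 and 1.29 for BMF.

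BCL2, the founding survival gene, fell in Nalm6 and was not called in CEM. It stood at 199, 193 and 186 CPM untreated and 75.5, 76.4 and 75.9 CPM with prednisolone in Nalm6, and at 44.1, 41.4 and 48.0 CPM untreated and 42.6, 42.3 and 45.1 CPM with prednisolone in CEM, where the groups overlapped. The difference was 1.31 ± 0.06 (log2 ± SE, edgeR adjusted p = 6.56e-13). BCL2L1, which encodes the survival protein BCL-XL, moved in opposite directions: it stood at 144, 144 and 143 CPM untreated and 111, 109 and 108 CPM with prednisolone in CEM, and at 49.3, 50.3 and 53.0 CPM untreated and 73.8, 72.9 and 79.2 CPM with prednisolone in Nalm6. It fell in the first and rose in the second, a difference of -0.96 ± 0.05 (log2 ± SE, edgeR adjusted p = 2.41e-11). The survival gene BCL2L2 did likewise (-0.36 in CEM and 0.27 in Nalm6), and the killers BIK (0.63 in CEM and -0.34 in Nalm6) and BID (0.41 in CEM and -0.48 in Nalm6) moved the other way round. PMAIP1, the BH3-only gene NOXA, fell in CEM (-0.89 ± 0.05) with a value of -0.0028 ± 0.05 in Nalm6. MCL1, a short-lived survival protein, rose slightly in each line (0.20 in CEM and 0.21 in Nalm6).

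IL7R, the alpha chain of the interleukin 7 receptor and a survival receptor of T- and B-cell precursors, had the sixth highest value of the difference among genes with an average of at least 1 log2 CPM and changed in opposite directions. It stood at 9.45, 9.63 and 9.25 CPM untreated and 110.5, 107 and 105 CPM with prednisolone in CEM, and at 335, 324 and 334 CPM untreated and 202, 187 and 185 CPM with prednisolone in Nalm6. Thus a low level in CEM rose towards the treated level of Nalm6, whose high level fell, with no overlap of groups in either line, and the difference was 4.31 ± 0.06 (log2 ± SE, edgeR adjusted p = 8.23e-21). Around it, 11 of 16 kept genes of the receptor, JAK-STAT and SOCS list differed (68.8% called, 37.3% overall), 5 higher and 6 lower in CEM. JAK1, a kinase bound to the receptor, rose in both and more in CEM (0.82 in CEM and 0.45 in Nalm6), whereas STAT5A and STAT5B, which carry its signal, had differences of -0.22 and -0.11 (edgeR adjusted p = 0.0543 and 0.0438). Feedback genes of STAT5 were lower in CEM: SOCS2 rose in both lines (0.75 in CEM and 1.99 in Nalm6) and CISH fell in CEM and rose in Nalm6 (-0.40 in CEM and 0.80 in Nalm6). The survival kinase gene PIM1 had values of 0.43 in CEM and -0.17 in Nalm6 and a difference of 0.60; its fall in Nalm6 was not called without untreated Nalm6 replicate 2 (-0.16), untreated Nalm6 replicate 3 (-0.17) or treated Nalm6 replicate 2 (-0.15).

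Responses in a list of FOXO genes and genes that restrain the PI3K and mTOR growth pathway were mostly higher in CEM. Of 18 kept, 12 were higher and 3 lower in CEM (83.3% called, against 37.3% of all genes), with a median response of 0.45 in CEM and 0.10 in Nalm6. With the dexamethasone libraries of Nalm6, 8 were higher and 4 lower, and the median difference was 0.19 against 0.41. PIK3R1, the regulatory subunit that holds PI3K inactive, stood at 79.1, 84.6 and 81.1 CPM untreated and 195, 193 and 200.4 CPM with prednisolone in CEM, and at 323, 318 and 300.4 CPM untreated and 228, 227 and 226 CPM with prednisolone in Nalm6. It rose in the first and fell in the second without overlap, a difference of 1.74 ± 0.05 (log2 ± SE, edgeR adjusted p = 3.36e-16). The sestrins SESN1 (1.76 in CEM and 0.68 in Nalm6) and SESN3 (1.40 in CEM and 0.87 in Nalm6), which sense amino acids upstream of mTOR, rose in both lines and more in CEM. DEPTOR, a direct mTOR inhibitor that passed the filter in CEM through its treated libraries alone, rose there to 0.622, 0.477 and 0.456 CPM and had a response of 0.10 in Nalm6. PIK3IP1, an inhibitor of the PI3K catalytic subunit, rose in both lines, by 5.63 ± 0.07 in CEM and 5.43 ± 0.08 in Nalm6, with a difference of 0.19 (95% interval -0.13 to 0.51). PHLPP2, a phosphatase of AKT, went against the list (-0.22 in CEM and 0.48 in Nalm6), as did TXNIP, described above.

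Within the kept Wnt targets and nuclear Wnt factors listed, LEF1 and the co-repressor TLE1 had the largest differences in either direction. LEF1, which binds Wnt target genes with beta-catenin and is itself a target, stood at 584, 612 and 582 CPM untreated and 928, 936 and 956 CPM with prednisolone in CEM, and at 509, 534 and 529.8 CPM untreated and 259.7, 263 and 248 CPM with prednisolone in Nalm6. Similar untreated levels thus moved apart, up in CEM and down in Nalm6, with no overlap, and the difference was 1.70 ± 0.05 (log2 ± SE, edgeR adjusted p = 2.44e-16). TLE1, a Groucho-family co-repressor, stood at 30.2, 34.0 and 31.8 CPM untreated and 110.0, 113 and 116 CPM with prednisolone in Nalm6, and at 85.2, 88.5 and 82.1 CPM untreated and 92.7, 92.2 and 89.9 CPM with prednisolone in CEM. It rose in Nalm6 (1.80 ± 0.04) from a level below that of CEM to one above it, and its response in CEM was 0.086 ± 0.04 (edgeR adjusted p = 0.0912), called without untreated CEM replicate 2 (0.12, edgeR adjusted p = 0.0363). The difference of TLE1 was -1.72 ± 0.06 (log2 ± SE, edgeR adjusted p = 5.99e-15).

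Among the 8 kept genes of TCF/LEF, beta-catenin and TLE proteins, 3 were higher and 2 lower in CEM (62.5% called, 37.3% overall). TLE2 rose in CEM (0.65) with a value of -0.061 in Nalm6, and CTNNBIP1, an inhibitor of beta-catenin binding, fell in CEM and rose in Nalm6 (-0.26 in CEM and 0.26 in Nalm6). CTNNB1, beta-catenin itself, rose in both (0.20 in CEM and 0.27 in Nalm6, 95% interval of the difference -0.16 to 0.033). Only 7 of 16 Wnt targets were kept, 4 of them higher and 0 lower in CEM (57.1% called, 37.3% overall). AXIN2, the target most often read as a reporter of the pathway, had a response of 0.059 in CEM and rose in Nalm6 (0.27), and its difference was -0.21 ± 0.21 (log2 ± SE, edgeR adjusted p = 0.495), not called. MYC fell in both lines (-0.80 ± 0.03 in CEM and -1.0 ± 0.03 in Nalm6), with a difference of 0.20. ZNRF3, a ligase that removes Wnt receptors, had a difference of 0.43 ± 0.16 (log2 ± SE, edgeR adjusted p = 0.0399) that was called in 3 of 12 fits that left out a library, those without untreated CEM replicate 2 or 3 or treated Nalm6 replicate 1, and was lowest (0.29, edgeR adjusted p = 0.150) without untreated CEM replicate 1.

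RAG1 and DNTT, recombination genes of lymphocyte precursors, moved in opposite directions. RAG1, a subunit of the recombinase that cuts antigen receptor genes in both B and T precursors, stood at 418, 393 and 415 CPM untreated and 198, 182 and 186 CPM with prednisolone in CEM, and at 1167, 1204 and 1238 CPM untreated and 1523, 1547 and 1572 CPM with prednisolone in Nalm6. It fell in the first and rose in the second, a difference of -1.47 ± 0.05 (log2 ± SE, edgeR adjusted p = 2.47e-14). DNTT, the terminal transferase that adds nucleotides at the joins, did the same (-0.60 in CEM and 0.19 in Nalm6), and RAG2 rose in Nalm6 (0.65) with a value of -0.026 in CEM. Of 14 kept B-lineage genes, 3 were higher and 8 lower in CEM (78.6% called, 37.3% overall). The surrogate light chain gene VPREB1 and the precursor antigen MME (CD10) fell in Nalm6, where they are abundant (-0.90 and -0.70), and rose in CEM (0.23 and 0.32). CD72, a co-receptor of B cells, rose in both lines and more in Nalm6 (0.43 in CEM and 1.74 in Nalm6). EBF1, a founding factor of B cells, did not pass the filter, since CEM has almost none of it.

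Of 11 kept T-lineage and Notch genes, 3 were higher and 5 lower in CEM (72.7% called, 37.3% overall). HES1, a repressor switched on by Notch, stood at 65.1, 68.3 and 70.6 CPM untreated and 29.2, 28.6 and 27.3 CPM with prednisolone in CEM, and at 0.0807, 0.0816 and 0.104 CPM untreated and 0.577, 0.418 and 0.512 CPM with prednisolone in Nalm6. It fell in CEM and rose in Nalm6, a difference of -3.68 ± 0.29 (log2 ± SE, edgeR adjusted p = 3.05e-09), but its Nalm6 values stayed under 1 CPM and it passed the filter there through treated libraries alone. PTCRA, the pre-T-cell receptor alpha chain and another Notch target, fell in CEM (-1.51 ± 0.11) with a response of 0.15 in Nalm6, and that response was called without untreated Nalm6 replicate 2 (0.28, edgeR adjusted p = 0.0265). NOTCH1 fell in both (-0.60 in CEM and -0.68 in Nalm6), with a difference of 0.081 that was not called and that, with the dexamethasone libraries of Nalm6, turned to -0.22, edgeR adjusted p = 0.0276. GATA3, a master factor of T cells, rose in Nalm6 (1.26) from 6.18 ± 0.375 to 15.1 ± 0.659 CPM and had a response of -0.042 in CEM, where it stood at 53.8 ± 8.48 CPM untreated (SD, n = 3). LCK, the T-cell kinase, had a response of -0.014 in CEM and fell in Nalm6 (-0.37). ZAP70, another kinase of T-cell receptor signalling, had responses of -0.016 in CEM and -0.34 in Nalm6 and a difference of 0.32, which was -0.013 with the dexamethasone libraries.

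DNA replication genes fell in both lines, and further in Nalm6. All 24 were kept, and 22 fell in CEM and 24 in Nalm6, against 22.3% and 30.6% of all genes. The difference was called higher in CEM at 23 (95.8% called, against 37.3% of all genes, and 20.5% called higher). A deeper fall in Nalm6 was also common outside the list. Over all genes that fell in both lines with a called difference, 921 fell more in Nalm6 and 88 more in CEM. The list had a median response of -0.27 in CEM and -0.80 in Nalm6, and POLE, the leading-strand polymerase, was the member not called in the difference (-0.10). MCM4, a subunit of the replicative helicase, stood at 461, 468 and 463 CPM untreated and 392, 392 and 390.0 CPM with prednisolone in CEM, and at 532, 528 and 534 CPM untreated and 285, 245 and 243 CPM with prednisolone in Nalm6. Its groups were apart in each line, the fall being deeper in Nalm6, and the difference was 0.81 ± 0.06 (log2 ± SE, edgeR adjusted p = 3.00e-09). GINS2, a partner of that helicase, had the highest difference of the list (0.81), and MCM5 fell in Nalm6 alone (-0.79, with -0.011 in CEM). The sliding clamp PCNA fell in both (-0.20 in CEM and -0.94 in Nalm6).

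Regulators of the G1 phase followed in part. Of 16 kept cyclins, CDK inhibitors and E2F genes, 8 were higher and 4 lower in CEM (75% called, 37.3% overall). CDK6, a kinase that drives G1, fell in Nalm6 (-0.74 ± 0.04) with -0.069 ± 0.04 in CEM. The related kinase CDK4 (-0.33 in CEM and -0.79 in Nalm6) and the partner cyclin CCND3 (-0.38 in CEM and -0.80 in Nalm6) fell in both. E2F8, a repressor of E2F target genes, fell in Nalm6 (-0.67) with a value of 0.036 in CEM. The brake RB1 moved the other way, down in CEM and up in Nalm6 (-0.27 in CEM and 0.25 in Nalm6), and CDKN2D had values of -0.25 in CEM and 0.25 in Nalm6, the second not called without treated Nalm6 replicate 3 (0.15). Of 20 genes of mitosis, 9 were higher and 1 lower in CEM (50% called, 37.3% overall). With the dexamethasone libraries of Nalm6 15 were higher and 0 lower, 6 were called when all 33 libraries were fitted together, and they had a median response of -0.036 in CEM and -0.085 in Nalm6. KIF11, a spindle motor, had the highest difference of them (0.42), followed by the kinase AURKB (0.36). The lowest, of the kinetochore motor CENPE (-0.16), was lost without untreated Nalm6 replicate 1 (-0.14), untreated CEM replicate 1 (-0.13), treated CEM replicate 1 (-0.14) or treated Nalm6 replicate 2 (-0.13). The proliferation marker MKI67 had responses of -0.030 in CEM and 0.032 in Nalm6, neither called.

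MYC, the transcription factor gene lowered by glucocorticoids in lymphoid cells, stood at 270.2, 278 and 265 CPM untreated and 158, 158 and 157 CPM with prednisolone in CEM, and at 722, 741 and 752 CPM untreated and 383, 364 and 378 CPM with prednisolone in Nalm6. It fell in both lines without overlap, and the difference of 0.20 ± 0.05 (log2 ± SE, edgeR adjusted p = 0.00226) was small beside either response. Of its 11 kept network genes, 3 were higher and 5 lower in CEM (72.7% called, 37.3% overall). The MYC antagonist MXD4 rose in both and more in Nalm6 (1.09 in CEM and 1.77 in Nalm6), as did MLXIP, a glucose-sensing relative (0.23 in CEM and 0.93 in Nalm6). MYCL, a paralogue of MYC, had values of 0.61 in CEM and -0.45 in Nalm6 and a difference of 1.06. Its rise in CEM was not called without untreated CEM replicate 3 (0.52) or treated CEM replicate 1 (0.35), nor its fall in Nalm6 without untreated Nalm6 replicate 2 (-0.37) or treated Nalm6 replicate 2 (-0.33).

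Glycolytic genes fell more in Nalm6. Of 23 kept, 20 fell in Nalm6 and 13 in CEM, against 30.6% and 22.3% of all genes. The difference was higher at 20 and lower at 2 in CEM (95.7% called, against 37.3% of all genes, and 20.5% called higher). The median response was -0.22 in CEM and -0.63 in Nalm6. PKM, the pyruvate kinase of the last step, stood at 1054, 1058 and 1086 CPM untreated and 670.1, 609 and 633 CPM with prednisolone in Nalm6, and at 1018, 1006 and 1006 CPM untreated and 1011, 992 and 989 CPM with prednisolone in CEM. It fell in Nalm6 alone, a difference of 0.73 ± 0.05 (log2 ± SE, edgeR adjusted p = 6.09e-10). LDHA, which makes lactate, fell in both (-0.48 in CEM and -0.97 in Nalm6), and so did ENO1, the enolase (-0.36 in CEM and -0.90 in Nalm6). ALDOC, an aldolase, had the highest difference (1.19), at 2.25 ± 0.173 CPM in untreated CEM and 52.6 ± 1.03 CPM in untreated Nalm6. The phosphofructokinase genes went against the list, at -0.046 in CEM and 0.19 in Nalm6 for PFKP and 0.089 in CEM and 0.26 in Nalm6 for PFKL. With the dexamethasone libraries of Nalm6 the difference of PFKP was 0.0046, and that of PFKL was lost without untreated Nalm6 replicate 1 (-0.14), treated CEM replicate 2 (-0.16) or treated Nalm6 replicate 3 (-0.13).

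Ribosome biogenesis genes fell in both lines. Of 21 kept, 20 fell in CEM and 20 in Nalm6, against 22.3% and 30.6% of all genes. The difference was called at 5, all of them higher in CEM (23.8% called, against 37.3% of all genes, and 20.5% called higher). The median response was -0.42 in CEM and -0.50 in Nalm6. The nucleolar proteins NPM1 (-0.30 in CEM and -0.64 in Nalm6) and NOP58 (-0.25 in CEM and -0.52 in Nalm6) had the highest differences. DDX21, a nucleolar helicase, had responses of -0.58 in CEM and -0.58 in Nalm6 and a 95% interval of the difference of -0.099 to 0.096. With the dexamethasone libraries of Nalm6, 13 members were called. Of the genes of the ATF4 amino acid response, 18 of 19 fell in CEM and 19 in Nalm6, again against 22.3% and 30.6%. The list had 10 differences higher and 1 lower in CEM (57.9% called, against 37.3% of all genes). PHGDH, the first enzyme of serine synthesis, fell by 0.63 in CEM and by 1.52 in Nalm6 on the log2 scale, and the amino acid transporter SLC7A5 had values of -0.39 in CEM and -1.10 in Nalm6. PSAT1, the next enzyme after PHGDH, fell in both (-1.09 in CEM and -0.87 in Nalm6), and its difference of -0.21 was not called when all 33 libraries were fitted together (-0.22, edgeR adjusted p = 0.200).

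Cholesterol genes fell further in CEM. Of 23 kept, 19 fell in CEM and 15 in Nalm6, against 22.3% and 30.6% of all genes. The difference was lower at 14 and higher at 3 in CEM (73.9% called, against 37.3% of all genes). The median response was -0.43 in CEM and -0.20 in Nalm6. HMGCS1, an early enzyme of the mevalonate pathway, fell in both lines (-1.13 in CEM and -0.74 in Nalm6). LSS, which closes the sterol ring, stood at 291, 290.5 and 288 CPM untreated and 176, 165 and 170.4 CPM with prednisolone in CEM, and at 189, 189 and 190.0 CPM untreated and 460.1, 472 and 463 CPM with prednisolone in Nalm6. It fell in CEM and rose in Nalm6 with no overlap, a difference of -2.06 ± 0.04 (log2 ± SE, edgeR adjusted p = 7.99e-18). The isomerase IDI1 (-0.66 in CEM and 0.43 in Nalm6) and ABCA1, which exports cholesterol (-0.36 in CEM and 1.16 in Nalm6), did the same. SREBF1, a transcription factor of lipid synthesis, fell more in Nalm6 (-0.22 in CEM and -0.90 in Nalm6). MYLIP, a ligase that degrades the LDL receptor, rose in CEM (0.62) with a value of 0.15 in Nalm6, and had the second highest difference of the list (0.46).

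**Figure D3:**
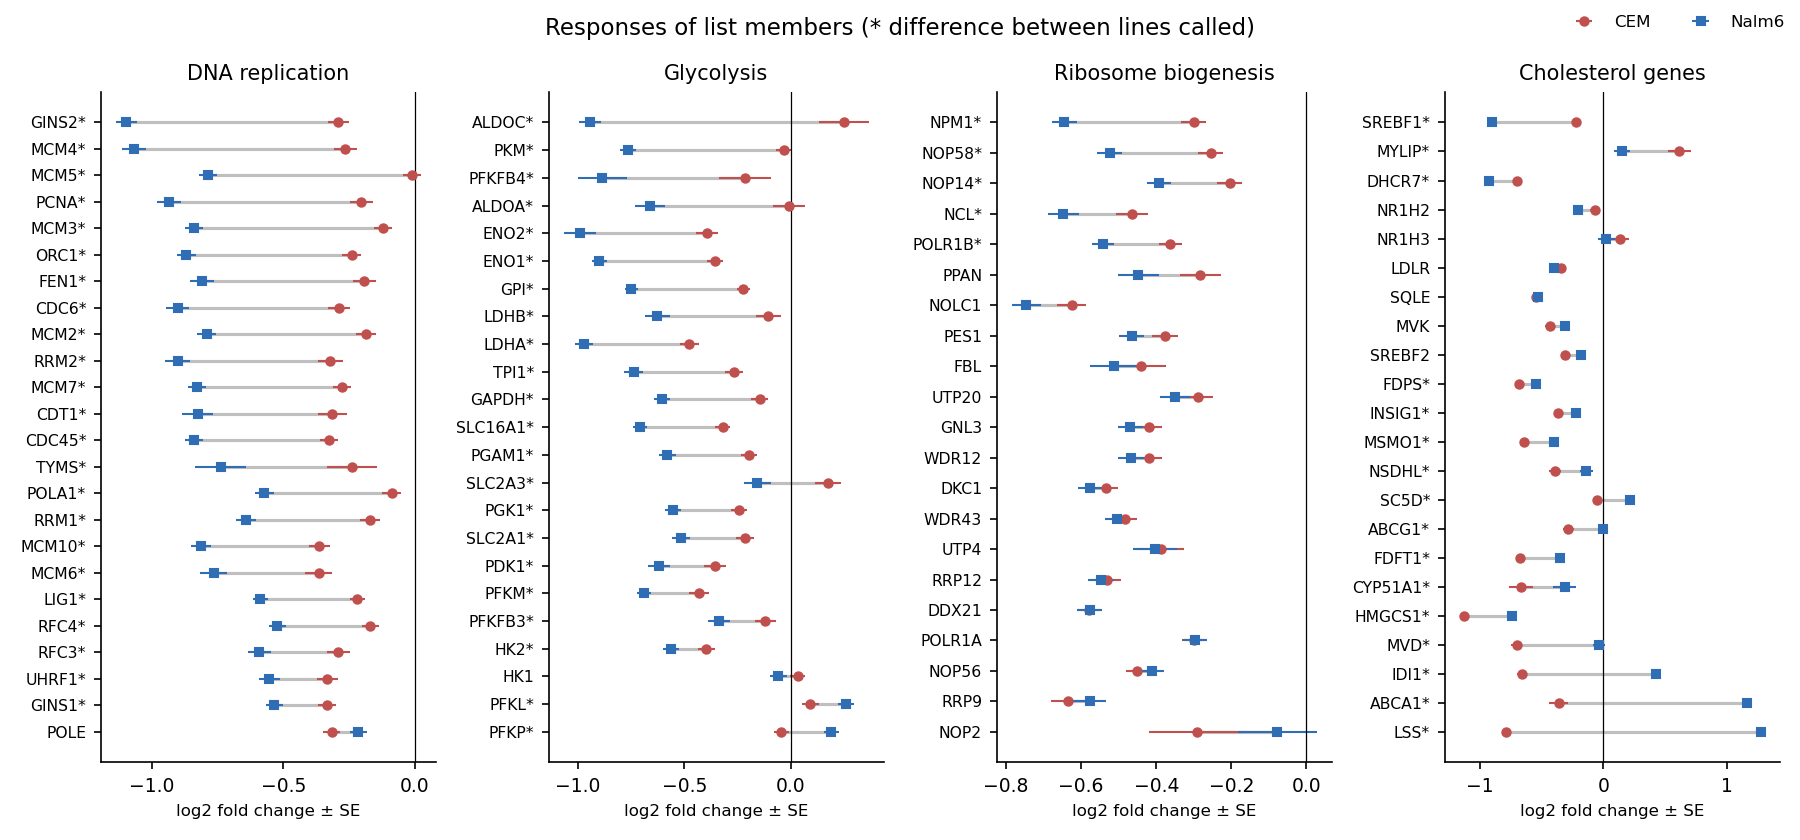
Responses (log2 fold change ± SE from the edgeR fit over 12 libraries) of kept members of 4 gene lists (1 cholesterol gene is not drawn) in CEM (red circles) and Nalm6 (blue squares); a star marks a called difference. In the DNA replication panel the Nalm6 point lies left of the CEM point for every member but POLE, and in the cholesterol panel LSS, ABCA1, IDI1 and SC5D have points on opposite sides of 0.

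Of 23 kept genes of lysosomes and autophagy, 14 rose in CEM and 18 in Nalm6, against 22.9% and 31.8% of all genes. Here 8 differences were lower and 3 higher in CEM, a share near that of all genes (47.8% called, 37.3% overall). TP53INP1, which takes part in autophagy and p53 signalling, stood at 3.86, 3.77 and 4.11 CPM untreated and 35.1, 32.1 and 31.7 CPM with prednisolone in CEM, and at 11, 10.6 and 10.1 CPM untreated and 544, 529.8 and 527 CPM with prednisolone in Nalm6. The rise was clear in each line and larger in Nalm6, a difference of -2.57 ± 0.09 (log2 ± SE, edgeR adjusted p = 7.76e-15). MAP1LC3B, the LC3 protein of autophagosomes, rose in Nalm6 (1.09 ± 0.07) with a value of -0.014 ± 0.09 in CEM, which, without untreated CEM replicate 2, became 0.17, edgeR adjusted p = 0.0175. The lysosomal transcription factor TFEB (0.26 in CEM and 1.01 in Nalm6) and the protease CTSB (0.64 in CEM and 1.19 in Nalm6) rose in both. The protease CTSD was higher in CEM (0.31), with -0.0090 under the dexamethasone libraries of Nalm6, and the difference of GAA (0.28), the acid glucosidase, was lost without treated CEM replicate 3 (0.24), treated Nalm6 replicate 1 (0.27) or treated Nalm6 replicate 2 (0.21).

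All called differences among the KLF zinc finger factors were lower in CEM, 7 of 9 kept (77.8% called, 37.3% overall). Of all genes, 16.9% were called lower in CEM. KLF2, a factor that keeps lymphocytes quiescent, stood at 2.82, 2.96 and 1.95 CPM untreated and 8.22, 7.54 and 8.26 CPM with prednisolone in CEM, and at 0.549, 0.449 and 0.592 CPM untreated and 16.5, 19.2 and 21.3 CPM with prednisolone in Nalm6. From a lower start it ended higher in Nalm6, a difference of -3.54 ± 0.22 (log2 ± SE, edgeR adjusted p = 8.20e-11). KLF6 rose in Nalm6 (1.69) with a response of 0.10 in CEM, called there without untreated CEM replicate 2 (0.21, edgeR adjusted p = 0.00250). KLF13 rose in both (1.16 in CEM and 1.79 in Nalm6). KLF9, a well known glucocorticoid target, did not pass the filter because its highest count in any CEM library was 2. In the list of NF-kB, AP-1 and dual-specificity phosphatase genes, 11 of 22 were lower and 4 higher in CEM (68.2% called, 37.3% overall). NFKBIA, the inhibitor of NF-kB, rose in both lines (1.28 in CEM and 1.46 in Nalm6), and NFKBIZ (0.30 in CEM and 1.66 in Nalm6) and FOS (1.17 in CEM and 2.5 in Nalm6) rose more in Nalm6. The MAP kinase phosphatases split, with DUSP6 up in Nalm6 (1.34, with 0.049 in CEM) and DUSP1 (0.31 in CEM and -0.24 in Nalm6) and DUSP2 (0.30 in CEM and -0.63 in Nalm6) up in CEM and down in Nalm6.

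Clock genes gave 4 higher and 2 lower differences among 13 kept, a share near that of all genes (46.2% called, 37.3% overall). NFIL3, a repressor that glucocorticoids induce in leukaemia lines, stood at 5.55, 5.44 and 5.38 CPM untreated and 27.1, 27.0 and 28.1 CPM with prednisolone in CEM, and at 21.2, 21.8 and 21.2 CPM untreated and 29.7, 28.9 and 27.5 CPM with prednisolone in Nalm6. It rose in both, much more in CEM, by 1.91 ± 0.07 (log2 ± SE, edgeR adjusted p = 1.92e-14). DBP, which competes with NFIL3 for the same sites, fell in Nalm6 (-1.24 ± 0.06) with a value of -0.13 ± 0.05 in CEM, and the difference was 1.10. The lowest differences were those of PER1, given above, and of CRY2 (-0.17), which was lost without untreated CEM replicate 1 (-0.14).

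Adhesion and homing receptors gave 6 higher and 4 lower differences among 15 kept (66.7% called, 37.3% overall). Of the kept genes, 3 passed the filter through 1 group of a line alone. CD69, an early activation receptor that retains lymphocytes in tissue, stood at 35.4, 31.2 and 34.0 CPM untreated and 126, 129.9 and 130.3 CPM with prednisolone in CEM, and at 3.46, 3.31 and 3.03 CPM untreated and 48.4, 49.7 and 49.8 CPM with prednisolone in Nalm6. It rose in both and by more in Nalm6, a difference of -1.97 ± 0.07 (log2 ± SE, edgeR adjusted p = 3.27e-14). The integrin ITGA6, a laminin receptor, rose more in CEM (1.81 in CEM and 1.06 in Nalm6), and the chemokine receptor CXCR4 rose in both lines (0.60 in CEM and 0.65 in Nalm6, 95% interval of the difference -0.16 to 0.052). ITGB7, the gut-homing integrin subunit, rose in CEM and fell in Nalm6 (0.93 in CEM and -2.42 in Nalm6). In Nalm6 it stood at 0.489 ± 0.246 CPM untreated and, near the counting floor, at 0.0984 ± 0.0396 CPM with prednisolone (SD, n = 3). It passed the filter there through untreated libraries alone. SELPLG, the selectin ligand, rose more in Nalm6 (0.36 in CEM and 1.49 in Nalm6), where it stayed under 1 CPM and passed the filter through treated libraries alone.

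Interferon and antigen presentation genes did not move as a block. Of 23 kept, 12 were higher and 5 lower in CEM (73.9% called, against 37.3% of all genes). Opposite movement occurred at 3 of them, and at 4.65% of all genes. IFI44, an interferon-induced gene, stood at 29.0, 29.2 and 29.2 CPM untreated and 41.0, 45.6 and 43.7 CPM with prednisolone in CEM, and at 4.78, 4.18 and 4.37 CPM untreated and 1.12, 1.39 and 1.48 CPM with prednisolone in Nalm6. It rose in CEM and fell in Nalm6, a difference of 2.28 ± 0.12 (log2 ± SE, edgeR adjusted p = 3.87e-12). MX1, an antiviral GTPase of the same response, did the reverse, at 10.7, 10.4 and 11.3 CPM untreated and 8.50, 9.27 and 7.61 CPM with prednisolone in CEM, and at 4.65, 4.39 and 4.55 CPM untreated and 8.83, 11.3 and 10.0 CPM with prednisolone in Nalm6, a difference of -1.50 ± 0.12 (log2 ± SE, edgeR adjusted p = 5.80e-09). OAS3 fell in both and more in Nalm6 (-0.11 in CEM and -1.04 in Nalm6), and IFIT1 fell in Nalm6 (-1.28) with a value of -0.25 in CEM. TAP1, the peptide transporter of antigen presentation, rose more in Nalm6 (0.41 in CEM and 0.92 in Nalm6). CIITA and CD74, also listed, did not pass the filter, with at most 4 counts in any CEM library. In Nalm6 their mean levels were 278 and 925 CPM untreated and 881 and 1709 CPM with prednisolone.

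**Figure D4:**
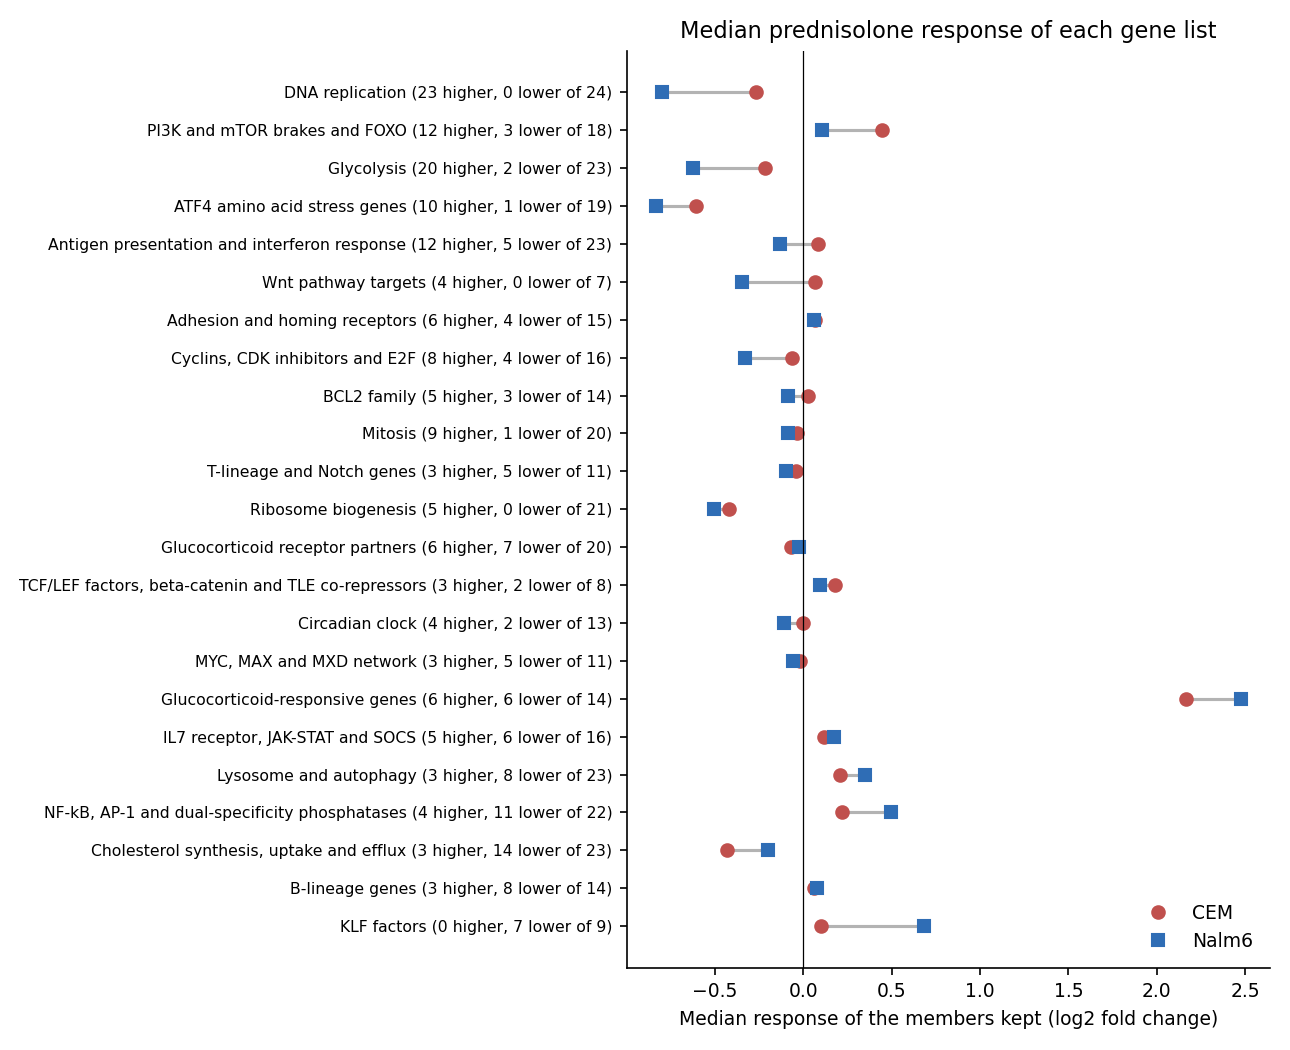
Median response of the kept members of each of 23 gene lists in CEM (red circles) and Nalm6 (blue squares), as log2 fold change, ordered by the median difference; brackets give how many differences were called higher and lower in CEM. The medians of DNA replication, glycolysis and KLF factors lie furthest apart, and those of the glucocorticoid-responsive genes are above 2 in each line.

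Several of the highest differences were of genes nearly silent in untreated CEM. RUNX2, a transcription factor of bone formation, stood at 0.347, 0.263 and 0.355 CPM untreated and 18.6, 17.2 and 18.5 CPM with prednisolone in CEM, and at 0.194, 0.306 and 0.261 CPM untreated and 0.238, 0.228 and 0.119 CPM with prednisolone in Nalm6. Its rise in CEM was far outside the spread, its Nalm6 groups overlapped at low counts that passed the filter in untreated libraries alone, and the difference was 6.25 ± 0.40 (log2 ± SE, edgeR adjusted p = 1.07e-10). BTNL9, a butyrophilin-like surface protein, went from 0.130, 0.132 and 0.236 to 42.5, 40.1 and 43.5 CPM in CEM and from 11.4, 12.6 and 12.1 to 75.4, 78.8 and 76.7 CPM in Nalm6, a difference of 5.34 ± 0.16 (log2 ± SE, edgeR adjusted p = 6.70e-16). It rose in both lines and remained higher in Nalm6, and it passed the filter in CEM through treated libraries alone, so its difference rests on low untreated counts. MACROD2, a hydrolase of ADP-ribose marks, rose to 98.3, 99.1 and 103 CPM in CEM from 2.30, 2.63 and 2.66 CPM, with responses of 5.29 in CEM and 0.53 in Nalm6. RASD1, a dexamethasone-induced Ras protein, passed the filter in CEM through treated libraries alone and rose there (4.25 ± 0.18) to 6.49 ± 0.511 CPM, far below its 198 ± 10.4 CPM in untreated Nalm6 (SD, n = 3), where its response was 0.15 and was not called without untreated Nalm6 replicate 1 (0.10) or treated Nalm6 replicate 3 (0.086).

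Other genes had a group at or under 3 counts per library and are given as bounds against that floor; each passed the filter in that line through its other group alone. PHACTR3, a regulator of protein phosphatase 1, was at 0 in untreated CEM and at least 7.88-fold higher with prednisolone, and PRKCZ, an atypical protein kinase C, was at least 9.88-fold higher. Both stayed under 1 CPM in CEM. CLIP4, a linker protein of microtubules, was at least 4.60-fold lower in treated Nalm6 and had a response of 0.23 in CEM. The bounds of their differences were 2.89, 2.44 and 2.43 on the log2 scale.

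Among the lowest differences were those of genes nearly silent in untreated Nalm6. CD244, a receptor of natural killer and T cells, had no count in untreated Nalm6 and was at least 66.6-fold higher with prednisolone, at 3.36, 3.15 and 4.27 CPM. TDRD9, a germline helicase, was at least 50.2-fold higher, the death-associated kinase DAPK1 at least 12.2-fold and the membrane protein MLC1 at least 8.15-fold, all passing the filter in Nalm6 through treated libraries alone. The bounds of the differences were -5.74, -5.34, -3.50 and -3.31 on the log2 scale, and the responses in CEM, where all are expressed, lay between -0.28 and 0.32. LSP1, an actin-binding protein of leukocytes, stood at 0.258, 0.224 and 0.226 CPM untreated and 11.1, 12 and 13.5 CPM with prednisolone in Nalm6, and at 70.1, 71.2 and 67.4 CPM untreated and 77.5, 77.8 and 76.2 CPM with prednisolone in CEM. It went from near absence to a clear level in Nalm6, with a CEM response of 0.13, a difference of -5.53 ± 0.14 (log2 ± SE, edgeR adjusted p = 1.02e-16). RASSF4, a Ras effector of the tumour suppressor family, went from 1.89, 1.92 and 2.18 to 106, 114 and 114 CPM in Nalm6, a difference of -4.86 ± 0.09 (log2 ± SE, edgeR adjusted p = 4.06e-19). CDC42EP3, an effector of CDC42, had a difference of -4.97, and the row named BNIP3P41, a pseudogene whose reads may be shared with near-identical copies, had one of -5.07 and passed the filter through 1 group of a line alone.

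The 692 genes of opposite direction included pronounced cases each way. ROR1, a receptor of Wnt5a, stood at 0.347, 0.746 and 0.798 CPM untreated and 9.03, 7.81 and 8.80 CPM with prednisolone in CEM, and at 0.937, 0.796 and 1.17 CPM untreated and 0.407, 0.474 and 0.222 CPM with prednisolone in Nalm6. It rose in CEM and fell in Nalm6 from similar low levels, a difference of 5.24 ± 0.34 (log2 ± SE, edgeR adjusted p = 1.70e-10). TRIM71, an RNA-binding ubiquitin ligase of stem cells, stood at 0.737, 0.548 and 0.739 CPM untreated and 4.12, 3.49 and 4.07 CPM with prednisolone in CEM, and at 3.26, 2.51 and 2.37 CPM untreated and 0.950, 0.987 and 0.904 CPM with prednisolone in Nalm6, a difference of 4.07 ± 0.23 (log2 ± SE, edgeR adjusted p = 2.67e-11). Here all treated CEM values lay above the untreated values of Nalm6. The platelet glycoprotein gene GP5 (1.25 in CEM and -1.85 in Nalm6), the exchange factor ARHGEF4 (1.20 in CEM and -1.38 in Nalm6) and the lipid receptor GPR18 (1.19 in CEM and -1.01 in Nalm6) also rose in CEM and fell in Nalm6.

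In the reverse direction, RGMA, a repulsive guidance molecule and co-receptor of BMP signalling, stood at 20.7, 26.0 and 21.5 CPM untreated and 10.7, 9.50 and 9.52 CPM with prednisolone in CEM, and at 13.8, 15.2 and 13.7 CPM untreated and 43.4, 39.2 and 41.3 CPM with prednisolone in Nalm6. It fell in CEM and rose in Nalm6 without overlap, a difference of -2.73 ± 0.11 (log2 ± SE, edgeR adjusted p = 8.15e-14). ADGRE2, an adhesion receptor of myeloid cells, fell in CEM (-0.82) and rose in Nalm6 from 1.05, 1.27 and 1.18 to 28.8, 29.6 and 28.3 CPM, a difference of -5.43 ± 0.13 (log2 ± SE, edgeR adjusted p = 5.56e-17). XPNPEP2, a membrane aminopeptidase, had responses of -1.07 in CEM and 0.84 in Nalm6. TSHR, the thyrotropin receptor, had -1.67 in CEM and 1.02 in Nalm6, the second at under 1 CPM and 0.67 without treated Nalm6 replicate 2. SERHL2, a serine hydrolase-like gene with close copies, had -1.32 in CEM and 1.72 in Nalm6, and its direction in Nalm6 depended on the counting: without regard to strand the response was -0.24, edgeR adjusted p = 6.52e-04.

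**Figure D5:**
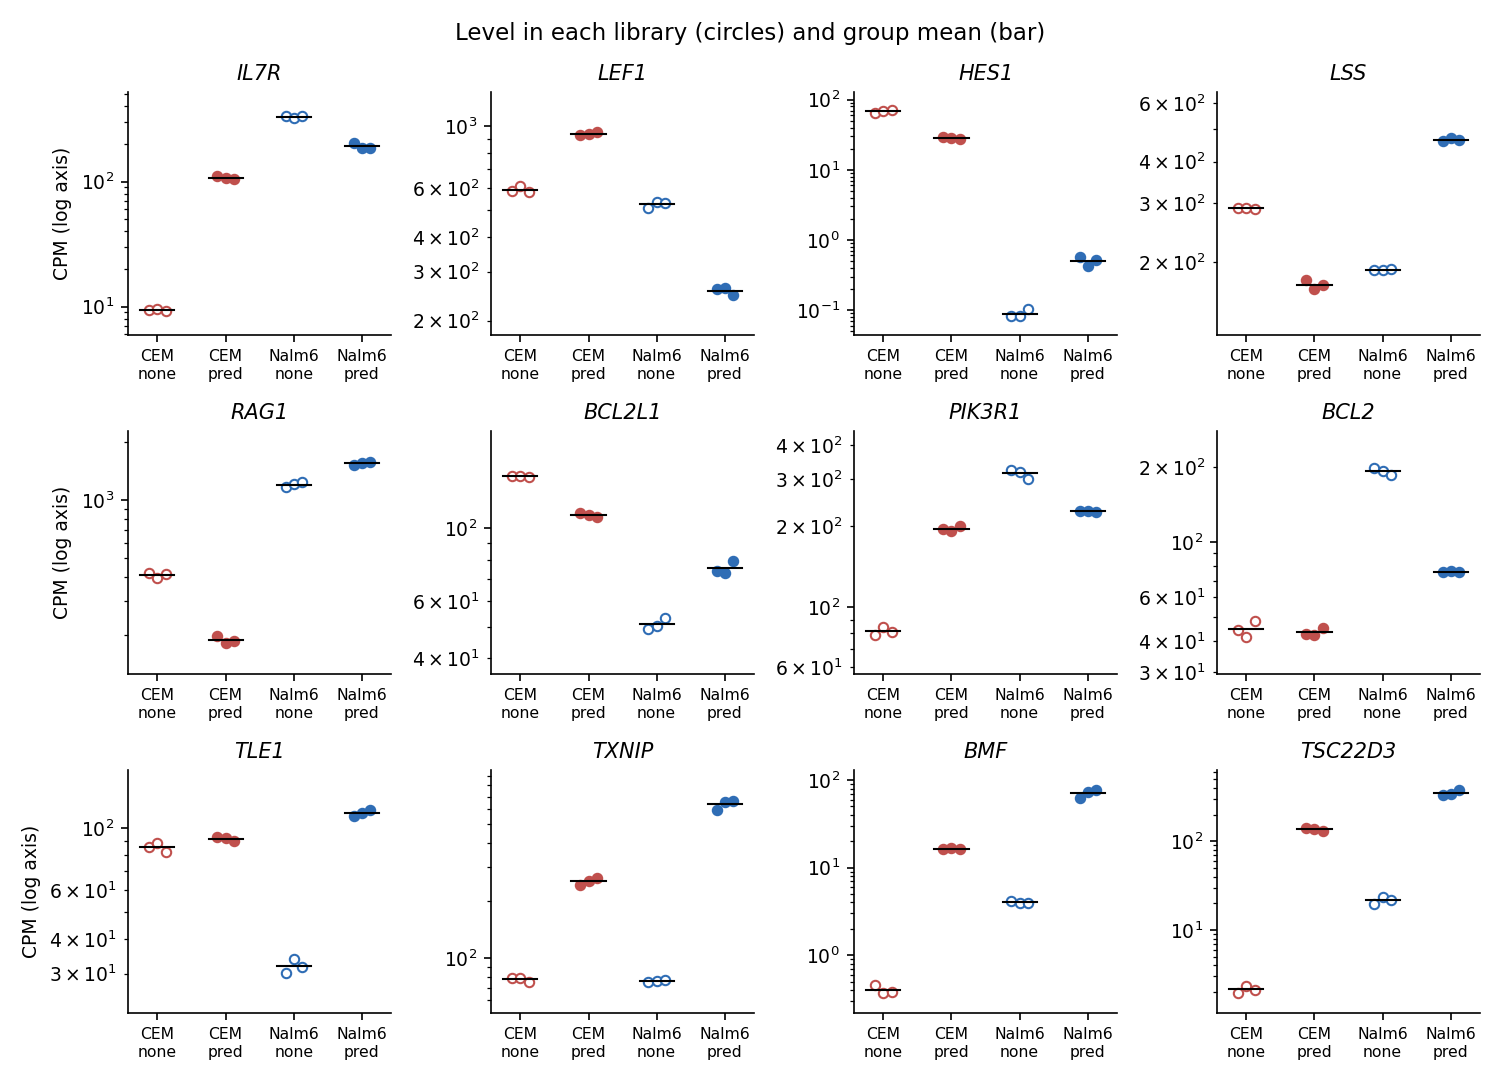
Level of 12 genes in each library (circles, open for untreated and filled for prednisolone; CEM red, Nalm6 blue) and the mean of each group of 3 (bars), in CPM on log axes that do not start at 0. IL7R, LEF1 and PIK3R1 rose in CEM and fell in Nalm6, HES1, LSS, RAG1 and BCL2L1 did the reverse, and BCL2 and TLE1 changed in Nalm6 with little change in CEM.

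Responses close in size could also be shown. At 3348 genes called in both lines in the same direction, the 95% interval of the difference lay within 0.5 either way. Of these, 25 responded by at least 1 in both lines, 22 rising and 3 falling. These counts include genes with a small but called difference, such as NR3C1 (0.37, interval 0.28 to 0.46). BTG1, an antiproliferative gene, stood at 45.9, 44.8 and 42.6 CPM untreated and 196, 197 and 197 CPM with prednisolone in CEM, and at 95.9, 95 and 90.4 CPM untreated and 397, 383 and 419 CPM with prednisolone in Nalm6, a difference of 0.060 (95% interval -0.060 to 0.18). METTL7A, a methyltransferase-like protein, had a difference of 0.045 (interval -0.17 to 0.26), the adaptor DOK4 of 0.066 (-0.22 to 0.35) and the vitamin B12 carrier TCN2 of -0.054 (-0.45 to 0.34). ISG20, an exonuclease gene, rose strongly in both (3.47 in CEM and 3.64 in Nalm6), with a difference of -0.18 (-0.37 to 0.022) that was called without untreated CEM replicate 2 (-0.26, edgeR adjusted p = 0.0394). The falls were of SLC7A11, the cystine transporter (-1.35 in CEM and -1.32 in Nalm6), CHAC1, which degrades glutathione (-1.32 in CEM and -1.40 in Nalm6), and DDN, dendrin (-1.37 in CEM and -1.32 in Nalm6), and the intervals of the difference were -0.19 to 0.13, -0.13 to 0.30 and -0.35 to 0.25. With the dexamethasone libraries of Nalm6, the differences of METTL7A (0.27, edgeR adjusted p = 0.0184) and ISG20 (-0.39, edgeR adjusted p = 0.00443) were called. That of DOK4 turned to -0.33 (edgeR adjusted p = 0.0775), and those of BTG1, TCN2, SLC7A11, CHAC1 and DDN were not called.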

How the data were processed

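RNA sequencing counts of 12 libraries, in 4 groups of 3 named by their titles, were used. The authors deposited whole-number counts for each gene, not normalized, in 3 columns (unstranded and each strand). Per the submitters' processing notes, hg19, Bowtie2 and DESeq2 were used, with no versions, whereas the layout is that of STAR gene counts. The rows that name no gene (unmapped 5.00% to 10.8%, no feature on the counted strand 19.3% to 32.7%, multiply mapped 4.83% to 5.73%, ambiguous 5.43% to 7.12% of a library) stayed out. Column 4, which held 13.5 to 14.6 times the total of column 3, was used, so genes that overlap on the same strand are undercounted. A count of 0 allows up to 3 counts, 0.0484 to 0.102 CPM, for counting error only.

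edgeR 4.0.16 (R 4.3.3) was fitted to the 12 libraries with TMM scaling and the quasi-likelihood F test, with 8 residual degrees of freedom, and Benjamini-Hochberg adjustment over 14871 genes. SEs come from the F statistic. CPM are relative to the gene total, with SD over 3 libraries. Of the 14871 genes, 1011 passed through only 1 group of a line; 251 genes had a lowest deciding count of 9 and 245 of 10. Symbols came from the supplied name table for 13071 of the genes kept. On simulated data over 14548 genes, 68.4% of 98 genes changed by 0.5 (log2) and 84.2% of 95 changed by 1 were recovered. All other genes were given the same response in both lines, and 12 of them were called, 7.55% of calls. In the data 37.3% of genes were called, a far higher share, so these rates need not hold for those calls.

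Genes were named by rule among those with a symbol and an average log2 CPM of at least 1. These were the 10 highest and 10 lowest called differences, and the 6 opposite responses each way with the highest smaller absolute response. Of the alike responses of at least 1, the 5 rises and 3 falls were those with the highest smaller absolute response, not the smallest difference. Up to 2 highest and 2 lowest called members of each of 24 lists were added, with their defining genes. Other list members, and the 3 sequences, were chosen after their values were seen. The members and lists were chosen with earlier results of these data known. Of the myeloid and erythroid list of 10, no gene was kept. A few genes that entered the counts are not reported here by name. Alternatives were RLE scaling, TMM within each line, DESeq2 1.42.0, no filter, filterByExpr, 10 counts in every library, robust moderation, a replicate block, the unstranded column, all 33 libraries, each library left out, centring on each line's median, and the 100 nM dexamethasone libraries of Nalm6.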

Additional observations from a re-analysis of the deposited data

Results flagged for a closer look

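Opposite responses of the lines, called in each line and in the difference itself (edgeR adjusted p under 0.05), were found at 692 genes. Among genes with an average log2 CPM of at least 1 and no overlap of treated and untreated libraries in either line, ranked by the smaller of a gene's absolute responses in the 2 lines, the first 6 that rose in CEM and fell in Nalm6, with their log2 differences of responses, were TRIM71 (4.07), ROR1 (5.24), GP5 (3.11), ARHGEF4 (2.58), GPR18 (2.20) and ITGB7 (3.34). The first 6 of the reverse kind were SERHL2 (-3.04), HES1 (-3.68), RGMA (-2.73), TSHR (-2.69), XPNPEP2 (-1.90) and ADGRE2 (-5.43). Of these, ITGB7 and HES1 passed the filter in Nalm6 through 1 group alone, and the Nalm6 direction of SERHL2 differed between strand-specific and unstranded counts.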

How the results depend on the processing

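The number of differences called was 5553. It was 5516 with RLE scaling, 5591 with TMM within each line, 5187 with DESeq2, 5186 of 38467 genes without a filter, 5514 with filterByExpr, 5520 with 10 counts in every library, 5581 with robust moderation, 5685 unstranded, 4545 with all 33 libraries, 5558 after centring and 4979 to 5743 leaving out 1 library; the share higher in CEM ran from 52.0% to 60.2%. Every count of calls over all genes stayed within 1.5 times its main value under these settings. Of the lists, receptor partners (6 called) and mitosis (6) moved by more with all 33 libraries, and ribosome biogenesis (13) with dexamethasone. With the dexamethasone libraries of Nalm6, another compound and dose with the same CEM libraries, 6524 differences were called, and those of FKBP5 (-0.23), NOTCH1 (-0.22), CENPE (0.052), PFKP (0.0046), ZAP70 (-0.013) and CTSD (-0.0090) changed sign. Of the genes alike under prednisolone, METTL7A (0.27) and ISG20 (-0.39) were then called. The differences of DOK4 (-0.33) and DDN (0.20), called in neither setting, also changed sign. The Nalm6 response of SERHL2 was -0.24 unstranded, and the CEM response of MAP1LC3B ran from -0.11 without untreated CEM replicate 3 to 0.17 without replicate 2; the cause was not tested. Of 109 named genes called in the difference, 102 were called in the same direction under each of the 23 settings other than the dexamethasone one that gave them a value, of which 15 had none with 10 counts in every library; 7 were not, among them ZNRF3, CENPE, PFKL, GAA, CRY2 and PSAT1.

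With the replicate number as a block within each line, 5773 differences were called, 5456 of them among the 5553. Same-numbered libraries had correlations of deviations of -0.021, -0.015, -0.0020 in CEM and 0.035, 0.12, 0.081 in Nalm6, so the numbers were not taken to pair them. Every Nalm6 library, but no CEM library, correlated best with its own number. Depth limits genes with a group near 3 counts per library, whose fitted differences depend on the prior count.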
